A study of Rattus norvegicus with 2 samples.

Results

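The prostaglandin E2 (PGE2) genes followed here were the cyclooxygenases Ptgs1 and Ptgs2, the PGE synthases Ptges, Ptges2 and Ptges3, the receptors Ptger1, Ptger2, Ptger3 and Ptger4, and the inactivating dehydrogenase Hpgd. They were listed by name for their place in the pathway and looked up through the accession that each array probe carries. Of the 10 genes, 9 matched a probe, among 15159 genes matched on the array, and no matched probe was found for Ptger1. The 9 genes had 11 probes and 27 spots on each array. The scanner software flags each spot that is well above background, and a probe was counted so here unless most of its spots lacked the flag. Each of the 9 genes had such a probe on at least 1 array, and 7 had one on both. Ptger4 was counted with 1 of its 2 aneurysm spots flagged.

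The arrays compared rat (Rattus norvegicus) intracranial arterial wall that had received no treatment, labelled normal, with a lesion from an induced intracranial aneurysm, collected at 3 weeks. Each group was 1 array of total RNA, so there was no replicate check and no test. The sources used here do not give the way aneurysms were induced, nor the strain, sex, age and number of animals behind each RNA. All errors below are spot errors: they come from repeat spots of like brightness on the same array and cover the reading of the array, not the spread between animals or extractions.

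PGE2 is made from arachidonic acid, which phospholipase A2 frees from membranes. The cyclooxygenases COX-1 (Ptgs1) and COX-2 (Ptgs2) turn it into PGH2, and the PGE synthases turn PGH2 into PGE2. PGE2 acts through the G protein-coupled receptors EP1 to EP4 (Ptger1 to Ptger4): EP2 and EP4 couple to Gs and raise cyclic AMP, EP3 couples mainly to Gi, and EP1 raises intracellular calcium. In rodent intracranial aneurysm, COX-2 and EP2 have been studied as parts of an inflammatory loop through NF-kappaB in the arterial wall.

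The promoters of 3 of these genes are shown because Ptger2 was the member with the largest difference, while Ptgs2 and Ptges, the enzymes usually described as inducible, had the smallest. The sequences are RefSeq's, on the GRCr8 assembly, 250 bases up to the listed start of each gene, printed 5′ to 3′ on the strand of the gene. They lie at chr15:20696796-20697045 (plus strand) for Ptger2, chr13:64713813-64714062 (plus strand) for Ptgs2 and chr3:34586988-34587237 (minus strand) for Ptges. Capitals mark matches on either strand to 1 of 6 motifs: the E-box CACGTG, the cyclic AMP response element half-site TGACG, the GC box GGGCGG, the CCAAT box CCAAT, a C/EBP-type motif TTGCNNAA and the TATA box TATAAA.
Ptger2: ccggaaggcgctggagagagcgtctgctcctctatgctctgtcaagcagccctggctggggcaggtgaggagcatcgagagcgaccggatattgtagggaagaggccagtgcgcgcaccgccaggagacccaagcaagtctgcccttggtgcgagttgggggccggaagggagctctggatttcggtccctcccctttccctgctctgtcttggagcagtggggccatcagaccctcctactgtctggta
Ptgs2: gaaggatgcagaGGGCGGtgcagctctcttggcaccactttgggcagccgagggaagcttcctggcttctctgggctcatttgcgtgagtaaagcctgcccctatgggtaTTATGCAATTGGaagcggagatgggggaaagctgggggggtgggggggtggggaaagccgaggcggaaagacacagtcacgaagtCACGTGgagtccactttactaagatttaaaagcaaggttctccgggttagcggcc
Ptges: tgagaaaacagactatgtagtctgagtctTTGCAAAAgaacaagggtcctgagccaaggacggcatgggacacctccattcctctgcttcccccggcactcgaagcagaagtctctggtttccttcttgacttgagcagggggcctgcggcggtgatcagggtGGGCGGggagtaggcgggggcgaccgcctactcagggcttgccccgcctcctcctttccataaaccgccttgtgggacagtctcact
In Ptgs2 the E-box lay 55 to 50 bases before the listed start and the GC box 238 to 233 bases before it. On the other strand, its C/EBP-type match at 140 to 133 bases shared 1 base with its CCAAT match at 133 to 129 bases. In Ptges a GC box lay 87 to 82 bases and a C/EBP-type match 221 to 214 bases before the start. The Ptger2 window held 0 matches, which says only that these letters are not in it. Over 27457 rat promoter windows of this length, the E-box was in 5.79%, the C/EBP-type motif in 9.20%, the TATA box in 13.1%, the half-site in 19.0%, the GC box in 32.4% and the CCAAT box in 34.3%. Of the 10 genes, 9 had a window in the table, and the GC box was in 6 of those 9.

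On the arrays, 74.7% of control spots and 76.4% of aneurysm spots were well above background, and 0 were saturated. The 75th percentile of the spot signal stood at 621 for the control array and at 801 for the aneurysm array. Signals are therefore given first as scanned and then as log2 values relative to that percentile, and all differences are aneurysm minus control on the relative log2 scale. Over 11902 genes with a difference the median was 0.001. Oligodendrocyte, pituitary, liver and red cell transcripts were lower in the aneurysm array. The summed relative signal went from 21.6 in control to 0.542 in aneurysm for 7 hepatocyte markers, from 163 to 83.0 for 5 oligodendrocyte markers and from 149 to 79.7 for 3 red cell markers, and 4 of 4 pituitary markers were lower, with a median of -1.82.

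Ptger2, which encodes EP2, had the highest difference of the 9 genes. Its 2 control spots read 15.2 ± 3.47 and 4.93 ± 3.33 (the scanner software's error of the signal), and neither was well above background. Its 2 aneurysm spots read 62.6 ± 6.89 and 54.1 ± 6.21, and both were well above background. Both aneurysm spots lay above both control spots, and the ranges were far apart. Its relative level stood at -6.16 in control and -3.78 in aneurysm, a difference of 2.38 ± 0.60. The means were 5.20-fold apart, and 3.44-fold to 7.88-fold within 1 spot error. That ratio rests on control readings that were not well above background, so it is no lower limit. The spots at the same array position differed by 1.67 and 3.09.

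The uncertainty of that value lies in the dim control. Control spots of like brightness varied with a pooled SD of 0.83 on the log2 scale, against 0.18 for aneurysm spots as bright as those of Ptger2. The array's negative control spots, which carry no rat sequence, gave a second reading of the same question. Before background subtraction the Ptger2 spots had a median pixel brightness of 54.5 and 40.5 in the control and 108 and 98.5 in the aneurysm. The 308 negative control spots had a median of 34 and a maximum of 57 in the control array, and a median of 36 and a maximum of 45 in the aneurysm array. In the control array 1 and 11 of them were as bright as the Ptger2 spots, and in the aneurysm array 0 were.

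**Figure D1:**
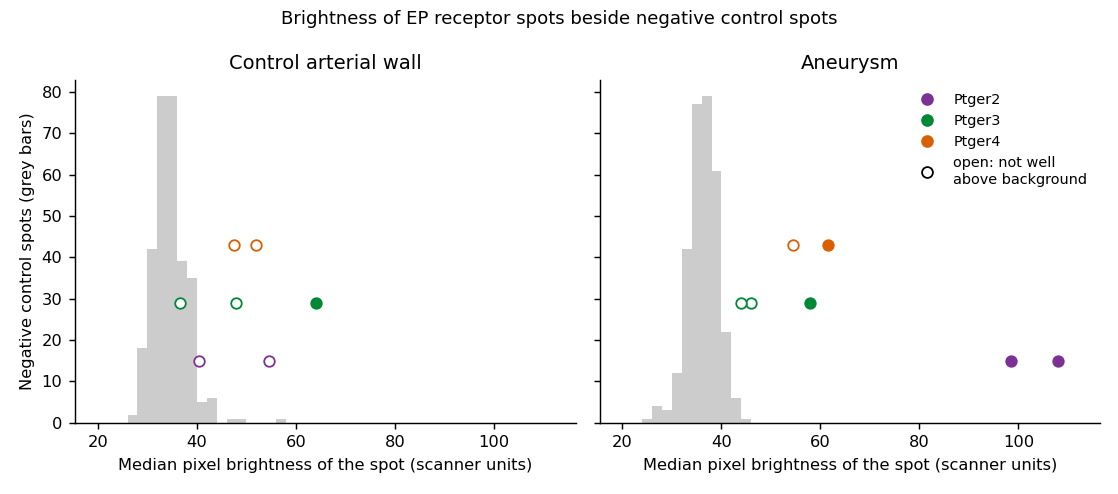
Median pixel brightness of the EP receptor spots (points, scanner units, open where not well above background) over the 308 negative control spots of each array (grey bars, number of spots). The height of the points only separates the genes. The control Ptger2 spots lie within the range of the negative controls, and the aneurysm Ptger2 spots, at 98.5 and 108, lie beyond their maximum of 45.

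A lower limit that does not use the dim control readings sets the aneurysm level against the brightest control spot that was not well above background, at a signal of 19.9 and a relative level of -4.97. Ptger2 was 1.18 above it, or 2.27-fold higher, which leaves out the spot error of its aneurysm level. Of the 11983 genes well above background on at least 1 array, 452 (3.77%) were so in the aneurysm array only. Ptger2 was the 1 gene of these 452 whose aneurysm level passed that limit by 2-fold. Nothing is read from that, because all 452 were counted only through the array where they were high.

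The size of the difference depended on the background treatment. It was 2.53 under quantile normalization, 2.41 under median centring and 2.69 under spike-in scaling. With normexp background correction, whose offset of 50 by its construction pulls the values of dim probes together, Ptger2 was at 0.54 on the processed signal and at 0.46 on the median signal. It was then under 2-fold, and 146 genes (1.26%) and 196 genes (1.70%) had a value at least as high. Where genes had to be well above background on both arrays, Ptger2 had no value.

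**Figure D2:**
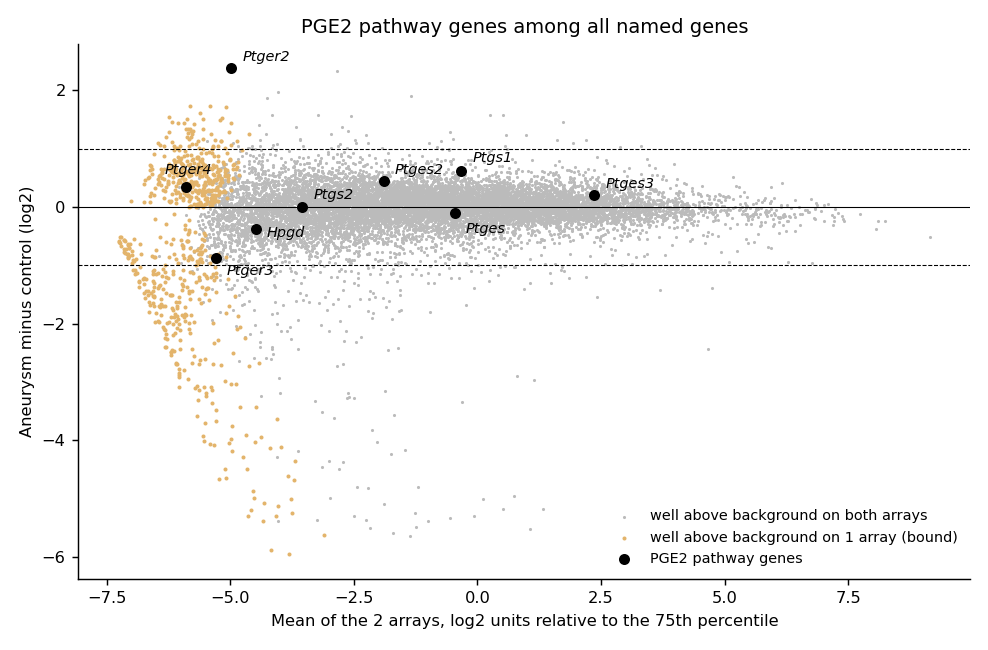
Difference between the arrays (aneurysm minus control, log2) against the mean of both relative log2 signals for 11902 named genes, with 9 PGE2 genes in black and 2-fold marked by dashed lines. Ptger2 lies at 2.38 among dim genes, and the other 8 lie within 2-fold.

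Ptger4, which encodes EP4, the other Gs-coupled receptor, was close to background on both arrays. Its spots read 11.4 and 7.55 in the control and 12.6 and 18.5 in the aneurysm, and 1 of the 4, in the aneurysm, was well above background. On the relative scale the spots of the arrays overlapped, and the difference was 0.35 ± 0.67. Its aneurysm level was below the brightest control spot not well above background (a difference of -0.75), so Ptger4 did not pass that limit. With normexp it was at -0.19 on the processed and -0.20 on the median signal, so its direction was not settled.

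Ptger3, which encodes the Gi-coupled EP3, had 2 probes. The probe with 1 spot was well above background on both arrays and read 21.5 in the control and 15.1 in the aneurysm, a difference of -0.88 ± 0.81. That is 1.84-fold lower, at about the size of its error, and it was -0.48 and -0.44 with normexp on the processed and the median signal. Neither array had the probe with 2 spots well above background: it read 9.56 and 3.33 in the control and 5.70 and 4.92 in the aneurysm. Its spots overlapped, at -0.46 ± 0.70. Ptger1 (EP1) has no value here.

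Of the cyclooxygenases, Ptgs1 (COX-1) had the best measured difference of the 9 genes. Its main probe had 10 spots on each array, which read 375 to 426 (median 399.9) in the control and 756 to 831 (median 796) in the aneurysm. No spot of one array reached the range of the other. Its relative level stood at -0.63 in control and -0.02 in aneurysm, a difference of 0.62 ± 0.04 or 1.54-fold, with single positions between 0.58 and 0.67. Of all genes with a difference, 435 (3.65%) were at least as high. Across the other scalings and background corrections it lay between 0.53 and 0.92.

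The other Ptgs1 probe pointed the other way. Its 2 spots read 36.6 and 42.1 in the control and 37.3 and 38.1 in the aneurysm, a difference of -0.43 ± 0.29. Relative to the percentile, its spots did not overlap either. It kept this direction in all 7 other scalings and background corrections, at -0.43 to -0.12. With the mean of both probes Ptgs1 was at 0.10. Which transcripts each probe reads was not tested.

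Ptgs2 (COX-2), the inducible cyclooxygenase, read 52.8 and 53.8 in the control and 64.6 and 74.0 in the aneurysm. All 4 spots were well above background. The scanned signals were higher in the aneurysm array, but relative to the percentile the spots overlapped, at a level of -3.54 in the control and -3.53 in the aneurysm. The difference of 0.01 ± 0.19 took either sign with the processing, from -0.16 with normexp on the median signal to 0.31 with spike-in scaling.

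**Figure D3:**
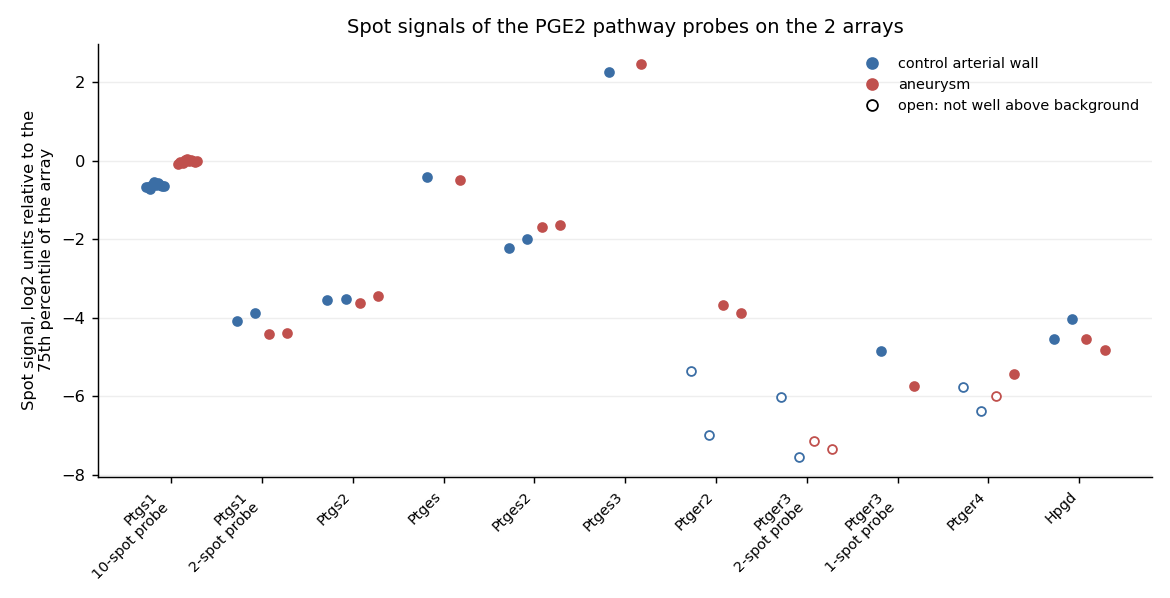
Relative signal of every spot (log2 units against the 75th percentile of its array) for the 11 probes of the PGE2 genes in the control (blue) and the aneurysm (red), open where not well above background. The spots of the arrays are apart for Ptger2, Ptges2 and both Ptgs1 probes, in opposite directions for the latter, and overlap for Ptgs2, Ptger4 and Hpgd.

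Among the PGE synthases, Ptges encodes the microsomal, inducible mPGES-1. Its probe had 1 spot per array, which read 468 in the control and 565 in the aneurysm, or -0.41 and -0.50 relative to the percentile. The difference was -0.10 ± 0.10, and 0.21 with spike-in scaling. Ptges2, which encodes mPGES-2, read 133 and 155 in the control and 247 and 257 in the aneurysm. These spots did not overlap, and the difference was 0.45 ± 0.14 or 1.36-fold, or 0.23 with normexp on the median signal. Ptges3, which encodes the cytosolic synthase and HSP90 co-chaperone p23, read 2988 in the control and 4439 in the aneurysm with 1 spot each. Its difference was 0.20 ± 0.08 or 1.15-fold.

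Hpgd, the 15-hydroxyprostaglandin dehydrogenase that inactivates PGE2, read 26.5 and 38.1 in the control and 34.5 and 28.6 in the aneurysm. Its spots overlapped, and the difference was -0.39 ± 0.39.

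For the 9 genes as a group, 6 were higher and 3 lower in the aneurysm, with a median of 0.20, where 50.2% of all genes were higher. Of the 6, Ptger2 and Ptger4 were well above background in the aneurysm array only. Among the 7 genes well above background on both arrays, 4 were higher and 3 lower, with a median of 0.01. With normexp, 8 of the 9 had a value, 4 higher and 4 lower, with medians of 0.06 on the processed and 0.01 on the median signal. Ptger4, whose probe was lower there (-0.19 and -0.20), was left out of those counts and medians. The direction of the group was therefore not settled.

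At least 2-fold higher was 1 of 9 (Ptger2), and 0 of 9 were at least 2-fold lower, beside 0.891% and 3.93% of all genes. Nothing is read from that comparison, because Ptger2 was counted only through the array where it was high, and 0 of the 7 genes well above background on both arrays passed 2-fold. At 1.5-fold, 2 of 9 were higher (Ptger2 and Ptgs1) and 1 of 9 was lower (Ptger3), beside 4.26% and 8.47% of all genes. The count higher at 1.5-fold was 0 with either normexp, 1 with the mean over probes, 1 for genes well above background on both arrays and 4 with spike-in scaling.

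Of the 8 probes with more than 1 spot, 4 had spots that did not overlap between arrays, against 65.5% of all such probes (68.1% of those with 2 spots and 37.8% of those with 10), so that separation of spots is common here. The difference exceeded 2 spot errors for 4 of 11 probes, those of Ptger2, Ptges2, Ptges3 and the 10-spot probe of Ptgs1, beside 40.1% of all named probes. Neither share stood above that of all probes.

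**Figure D4:**
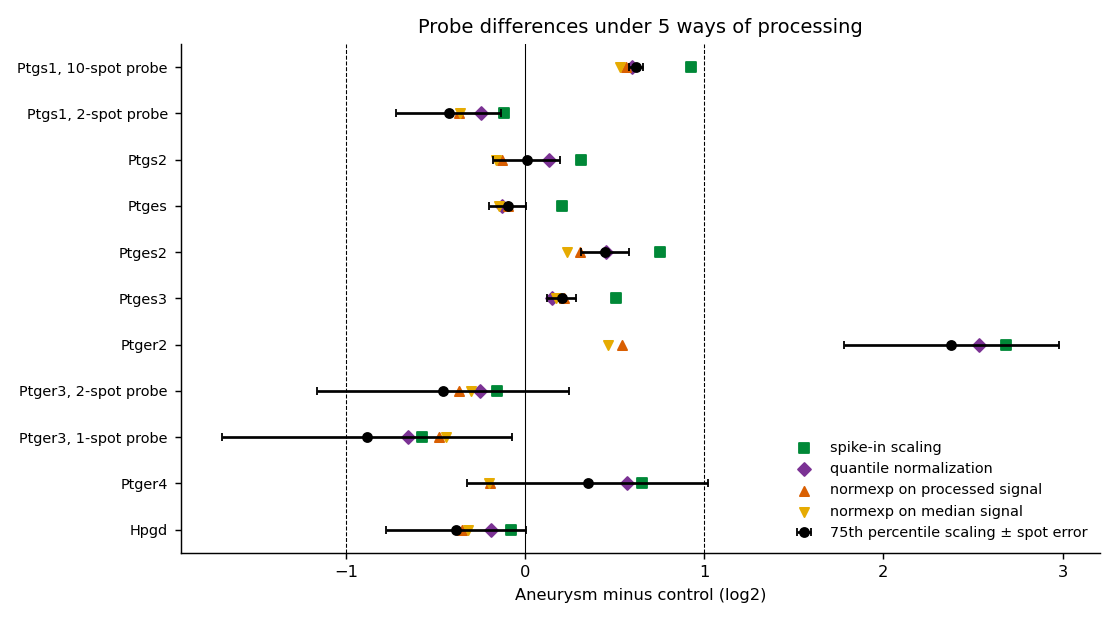
Aneurysm minus control (log2) for the 11 probes under 75th percentile scaling (black, bars are the spot error), quantile normalization, spike-in scaling and normexp on the processed and the median signal, with 2-fold marked by dashed lines. Ptger2 moves from 2.38 to 0.46 with normexp on the median signal, while the 10-spot Ptgs1 probe stays between 0.53 and 0.92.

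Spike-in scaling placed the median of all genes at 0.31. It moved each value up by that much, so differences relative to that median are the same as before by construction.

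The wider pathway was followed in 9 lists with 115 genes, of which 95 had a difference. Of the 95, 50 were higher and 45 lower, with a median of 0.04. At least 2-fold higher were 2 (2.11%, against 0.891% of all genes), Pla2g2f and Ccl2, and 0 were 2-fold lower (against 3.93%). Pla2g2f was well above background in the aneurysm array only, so nothing is read from the higher share. The count fell to 1 (Ccl2) when a gene had to be so on each array, and to 0 with either normexp. At 1.5-fold, 7 of the 95 were higher and 3 lower, against 4.26% and 8.47% of all genes. Nothing is read from the higher count here either, because Pla2g2f and Zfp36 were counted only through the aneurysm array.

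Of 12 genes of arachidonate release and re-esterification, 8 were higher and 4 lower, with a median of 0.23. With normexp on the median signal the median was 0.13 over 11 genes, without Pla2g2f, which was lower there. Pla2g4a, the cytosolic phospholipase A2 that supplies most arachidonate to the cyclooxygenases, was at 0.76 ± 0.26, but at 0.31 and 0.19 with normexp on the processed and the median signal. The secreted phospholipase Pla2g2d was at 0.58 ± 0.07, and at 0.28 with normexp on the median signal. Pla2g7, which hydrolyses platelet-activating factor, was at -0.96 ± 0.08. Pla2g2f, another secreted phospholipase, was well above background in the aneurysm only, with a bound of 1.16 that turned to -0.10 with normexp on the median signal. Its aneurysm level of -4.98 did not pass the limit of -4.97 used for Ptger2. The values called bounds here and below are set against dim control levels and are no lower limits.

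The 5 other synthases that use PGH2 had a median of 0.24, or -0.003 with normexp on the median signal, with 3 higher and 2 lower. Thromboxane synthase Tbxas1 was at 0.54 ± 0.09 and prostacyclin synthase Ptgis at 0.37 ± 0.06. The haematopoietic prostaglandin D synthase Hpgds was at 0.24 ± 0.19, and at -0.003 with normexp on the median signal. The lipocalin-type prostaglandin D synthase Ptgds, which is abundant in the meninges, was at -0.52 ± 0.05, but at 0.06 with quantile normalization.

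Of 7 genes of PGE2 transport and inactivation, 5 were higher and 2 lower, with a median of 0.03. Slco2a1, the transporter that takes PGE2 up for inactivation, was at 0.69 ± 0.18, but at 0.32 and 0.26 with normexp on the processed and the median signal. Slco3a1 was at 0.27 ± 0.09 (0.17 with normexp on the median signal), and the prostaglandin reductases Ptgr1 and Ptgr3 were at 0.23 ± 0.03 and -0.11 ± 0.10. Ptgr3 was at 0.02 with normexp on the median signal and at 0.20 with spike-in scaling, and its other probe was at -0.23. The efflux pump Abcc4, which exports PGE2, was at 0.03 ± 0.09.

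Downstream of EP2 and EP4, 27 genes of Gs and cyclic AMP signalling had a median of -0.12, with 9 higher and 18 lower, and 0 reached 2-fold. With spike-in scaling 20 were higher and the median was 0.18, below the median of all genes there. Quantile normalization gave 12 higher and 15 lower, with a median of -0.02. The furthest were the phosphodiesterase Pde4d (-0.63 ± 0.10), the protein kinase A subunits Prkar1b (-0.59 ± 0.06) and Prkacb (-0.42 ± 0.07), and the adenylyl cyclase Adcy8 (-0.57 ± 0.12). The other Pde4d probe was at -0.12. Prkar1b and Adcy8 are best known from brain. Glial markers were also lower: 4 of 4 astrocyte genes (median -0.42, sums 9.57 and 7.65) and 5 of 5 oligodendrocyte genes (median -1.22). Neuron markers were mixed, with 3 of 5 lower (median -0.17, sums 3.13 and 2.51). Of these, Tubb3 was at -1.22 ± 0.07, while Gad1 was higher, at 0.17 ± 0.07, with its other probe at -0.02. With the mean over probes 3 of 5 neuron genes were higher, with a median of 0.004. With spike-in scaling 4 of 5 neuron and 2 of 4 astrocyte genes were higher. Their part in the lower values was not tested.

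Of 12 genes of Gi and Gq signalling, 6 were higher and 6 lower, with a median of 0.05. With normexp on the median signal the median was -0.08 over 11 genes, without Gnai1, which was lower there. The phospholipase Plcb2 was at -0.53 ± 0.19, Gnaq at -0.38 ± 0.17 and Gnai3 at 0.34 ± 0.06. Gnai1 was well above background in the aneurysm only, with a bound of 0.58 that was -0.30 with normexp on the median signal. Receptor desensitisation, with 6 genes, had 2 higher and 4 lower and a median of -0.17, or 0.14 with spike-in scaling. The receptor kinases Grk3 and Grk5 were at -0.51 ± 0.20 and 0.27 ± 0.14, the latter at 0.07 with normexp on the median signal. The arrestins Arrb1 and Arrb2 were at -0.32 ± 0.16 and -0.17 ± 0.06, the latter at 0.13 with spike-in scaling.

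Among 9 regulators of Ptgs2 and Ptges, 6 were higher and 3 lower, with a median of 0.26. The C/EBP factors Cebpd and Cebpb, basic leucine zipper factors known to activate Ptgs2, were at 0.63 ± 0.06 and 0.51 ± 0.06, and the receptor Tlr4 was at 0.54 ± 0.15, or 0.23 with normexp on the median signal. Zfp36, which promotes decay of Ptgs2 mRNA, was well above background in the aneurysm only, with a bound of 0.89 that was -0.17 with normexp on the median signal. Ptgs2 itself was at the 0.01 given above.

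The NF-kappaB core list had 10 genes with a difference, 7 higher and 3 lower, with a median of 0.16. With normexp, 9 had a value, 5 higher and 4 lower, with medians of 0.04 on the processed and 0.02 on the median signal. Ikbkg, which was lower there, was left out of those counts and medians. Nfkbia, the inhibitor that NF-kappaB itself induces, was at 0.59 ± 0.06, the kinase Map3k14 at 0.57 ± 0.26 (0.26 with normexp on the median signal) and the kinase Map3k7 at -0.33 ± 0.07. Ikbkg had a bound of 0.56, and -0.26 with normexp on the median signal, and no matched probe was found for Nfkb1. Of 7 inflammatory effectors, 4 were higher and 3 lower, with a median of 0.11. With normexp on the median signal the median was -0.02 over 6 genes, without Cxcl1, which was lower there. The macrophage chemoattractant Ccl2 was at 1.11 ± 0.08 over 8 spots (0.70 with normexp on the median signal) and the adhesion molecule Vcam1 at 0.46 ± 0.03. The neutrophil chemoattractant Cxcl1 had a bound of 0.43, and -0.24 with normexp on the median signal. Il1b was at -0.29 ± 0.09, and at 0.01 with spike-in scaling.

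**Figure D5:**
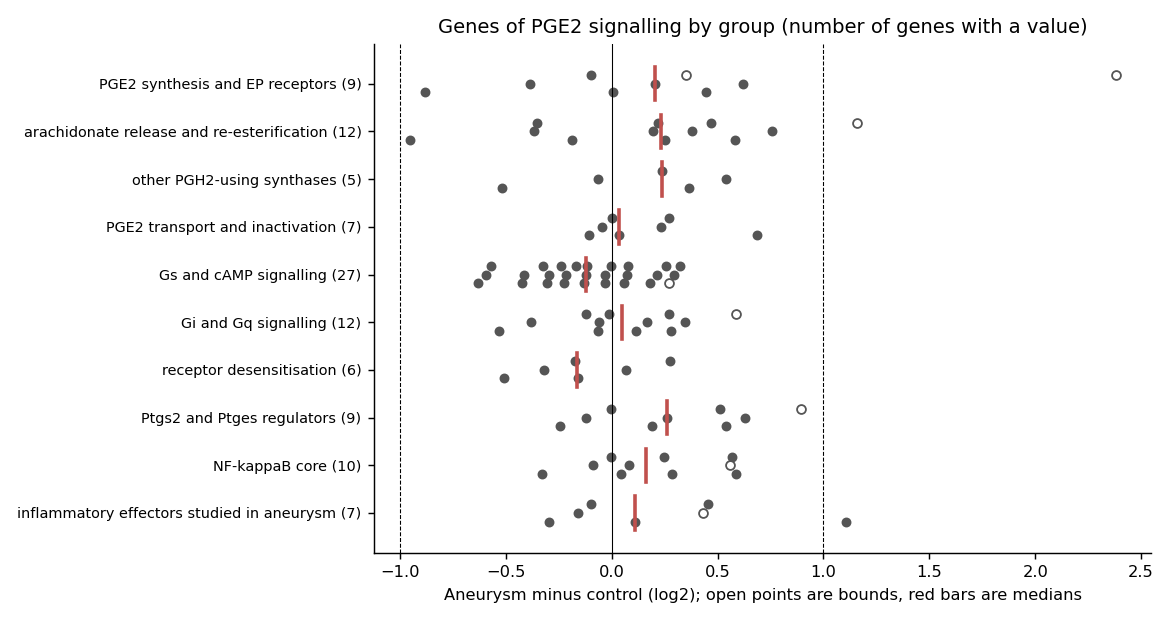
Aneurysm minus control (log2) for the PGE2 genes and 9 pathway lists, with 1 point per gene, open points for bounds, red bars for medians, dashed lines at 2-fold and the number of genes with a value in brackets. Bounds are set against dim levels and are no lower limits. List medians lie between -0.17 and 0.26, and 3 genes, Ptger2, Pla2g2f and Ccl2, lie beyond 2-fold.

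EP receptors and PGE2 enzymes are expressed by several cell types of the wall, and in whole tissue a change in the number of cells of a type and a change in RNA per cell cannot be told apart. Macrophage markers were well above background on both arrays for 10 of 10 genes. Of these, 9 were higher in the aneurysm, with a median of 0.24 and a summed relative signal of 46.2 in the control and 53.1 in the aneurysm. The remaining gene, Cd68, was at -0.05 ± 0.06. The count higher was 8 of 10 with either normexp and with the mean over probes, and 10 of 10 with spike-in scaling. The complement genes C1qb and C1qa were at 0.22 ± 0.05 and 0.20 ± 0.05.

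Fibroblast markers were higher for 5 of 5 genes, with a median of 0.55 and sums of 54.7 and 71.6. Pi16 was at 0.83 ± 0.08 and Col1a1 at 0.17 ± 0.05, and the other Col1a1 probe was at 0.01. Smooth muscle markers were higher for 4 of 6 (median 0.13, sums 97.2 and 107) and endothelial markers for 4 of 6 (median 0.18, sums 15.2 and 16.3, but 3 of 6 with normexp on the median signal), and both lists were well above background on both arrays. Lymphocyte markers were higher for 3 of 3 (median 0.22, sums 0.631 and 0.781), or 2 of 3 with normexp on the median signal.

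Lower in the aneurysm were platelet markers for 3 of 3 genes (median -0.27, sums 4.03 and 3.31), neutrophil markers for 2 of 3 (median -0.32, sums 0.333 and 0.276) and mast cell markers for 4 of 4 (median -1.07, sums 0.532 and 0.419). With spike-in scaling 3 of 3 platelet genes and 1 of 4 mast cell genes were higher. The mast cell median was -0.48 with either normexp. Platelets carry COX-1 as their main cyclooxygenase. The mast cell genes Hdc and Cma1 were not well above background in the aneurysm, and the other 2 had a median of -0.37. The part of any of these cell types in the values of Ptger2, Ptgs1 or the other PGE2 genes was not tested.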

How the data were processed

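Total RNA was extracted with a fibrous tissue kit and labelled with Cy3 in one colour, per the labels' protocols. The authors deposited scanner output of Feature Extraction 10.10.1.1 for 2 Agilent arrays, per the file headers. The values are processed spot intensities on a linear scale, already background-treated by that software per the file headers. The deposited flags used mark saturation, outliers and signal well above background. The probe design names the build rn4, per the file headers.

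Here log2 intensities were scaled by subtracting the 75th percentile of all non-control spots on the array. Outlier spots (484 in the control, 573 in the aneurysm) were dropped before averaging a probe's spots. Each array had 62976 spots, and its 58717 non-control spots made up 30367 probes. Of the probes, 18006 matched 1 gene by accession without version in a RefSeq gene table of GRCr8, used for names only, and the rest are unnamed here. For each gene the brightest probe was used among those well above background on 1 array or both. Where that was 1 array, the difference is called a bound: the dim side was set to its own value or, if higher, to the lowest level among that array's probes well above background. Such a bound rests on a dim level and is no lower limit on the size of the difference. For 81 of 11983 genes no bound was possible. A gene whose bound came out in the other direction has no value and is left out of counts and medians. The spot error is the pooled SD of repeat spots in 20 bins of brightness, divided by the square root of the number of spots and combined over both arrays. The number of arrays limits the precision, since each group has 1.

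The genes and lists were chosen with earlier results of these data known. Named were all members, up to 4 genes per pathway list with the largest absolute difference, Ccl2, Nfkb1, Pla2g4a, Abcc4 and Slco2a1 whatever their values, and up to 2 bright genes per marker list, not all of which are printed. Hdc and Cma1 are named as the mast cell markers not well above background in the aneurysm. The alternatives were 10 planned settings and 1 chosen after seeing the data, normexp on the median signal and local background. The mean signal planned for normexp was not used here, so it was run on the processed signal. Tools were Python 3.11.15, R 4.3.3 and limma 3.58.1, and the scripts were tested on simulated data.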

Additional observations from a re-analysis of the deposited data

How the results depend on the processing

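Counts of genes past 2-fold moved with the background treatment, the filter and the threshold. Of the 9 PGE2 genes, 1 was higher (Ptger2). With normexp on the processed signal, normexp on the median signal (chosen after seeing the data) or genes well above background on both arrays, 0 were higher, and at 1.5-fold 2 were higher and 1 lower. Of the pathway genes, 2 were higher, but 0 with either normexp, 4 with spike-in scaling, 1 with genes well above background on both arrays, and 7 higher and 3 lower at 1.5-fold. Of all genes, 106 were higher and 468 lower. These counts were 16 and 216 with normexp on the processed signal, 15 and 195 with normexp on the median signal, 185 and 768 with no filter, 52 and 240 with genes well above background on both arrays, and 507 and 1008 at 1.5-fold. Quantile normalization gave 166 higher genes, and spike-in scaling gave 313. Of genes past 2-fold, 81.5% were lower, against 93.1% and 92.9% with normexp on the processed and median signal, 71.1% after quantile normalization and 51.5% after scaling to spike-ins. Pla2g2f, a bound of 1.16, reversed to -0.10 with normexp on the median signal. Signal over background limits Ptger2, Ptger3 and Ptger4 most. No paired analysis was possible because each group has 1 array and the labels give no replicate numbers, and for the same reason no replicate could be left out.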
